A study of Homo sapiens with 12 samples.

Results

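The genes described here are 10 human genes of osmolyte transport and cell-volume adaptation, chosen by name from the table of read counts. They are NFAT5, AKR1B1, SLC5A3, SLC6A6, SLC6A8, SGK1, AQP3, AQP1, TSC22D2 and TSC22D3. All 10 were found among the 54261 gene symbols of the table, and all 10 passed the filter on low counts that left 17572 genes for testing. RNA was sequenced from cells labelled SW480 and DLD1, which are established colorectal cancer cell lines. The 4 groups were DLD1 with lactate, DLD1 without lactate, SW480 with lactate and SW480 without lactate, with 3 libraries each that the series' text calls biological replicates. No dose, duration or chemical form of lactate is given in the labels, and no control matched for osmolarity or acidity is described there. The lactate libraries are therefore set against untreated cells only. By RefSeq on GRCh38.p14, 5 of the genes that passed a test of lactate lie at chrX:107713221-107775988 (TSC22D3, minus strand), chr9:33441160-33447593 (AQP3, minus), chrX:153687926-153696593 (SLC6A8, plus), chr7:134442350-134459239 (AKR1B1, minus) and chr3:150408298-150466422 (TSC22D2, plus).

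Cells that lose water in a hypertonic medium take up or make small organic solutes, called osmolytes, which balance the outside without disturbing proteins. NFAT5 (also TonEBP) is the transcription factor best known for switching on this programme, in the kidney above all. Its known targets are AKR1B1, the aldose reductase that makes sorbitol from glucose, SLC5A3, which imports myo-inositol, and SLC6A6, which imports taurine. SLC6A8 imports creatine, SGK1 is a kinase induced by cell shrinkage and by glucocorticoids, and AQP3 and AQP1 are water channels, of which AQP3 also passes glycerol. TSC22D2 and TSC22D3 belong to one family of leucine zipper proteins, and TSC22D3 (GILZ) is a classic glucocorticoid-induced gene.

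Total counts ran from 12302311 to 22662063 per library, and levels are given as counts scaled to the library's total (CPM). The libraries labelled SW480 held almost no RNA of several defining colon epithelial genes. EPCAM averaged 671 ± 14.6 CPM in DLD1 lactate libraries and 701 ± 13.8 CPM in DLD1 controls, against 0.609 ± 0.220 CPM in SW480 lactate libraries and 0.964 ± 0.184 CPM in SW480 controls (SD, n = 3 each). CDH1 averaged 837 and 695 CPM in DLD1 lactate and control libraries, against 1.28 and 1.45 CPM in SW480 lactate and control libraries. KRT20 was at 0 in all 6 SW480 libraries, but was also low in DLD1, at 0.742 CPM with lactate and 0.816 CPM without. KRT18 and KRT19 were present in SW480, at 474 and 154 CPM with lactate and 738 and 95.8 CPM without. In DLD1 they averaged 2450 and 1757 CPM with lactate and 2170 and 1016 CPM without. The summed level of 8 epithelial markers was 9474 to 10510 CPM in DLD1 lactate libraries and 6480 to 9520 CPM in DLD1 controls. The same sum was 1400 to 1665 CPM in SW480 lactate libraries and 1949 to 2298 CPM in SW480 controls, most of it the keratin KRT8. The name SW480 is therefore used below only as the label of those libraries. Of 6 fibroblast markers, the sums were 9.27 to 10.96 CPM with lactate and 6.43 to 8.90 CPM without in DLD1, and 115 to 133 CPM with lactate and 109 to 118 CPM without in SW480. The 6 immune markers summed to 10.8 to 13.5 CPM with lactate and 3.48 to 8.96 CPM without in DLD1, and to 90.6 to 110 CPM with lactate and 35.3 to 55.8 CPM without in SW480. CD68 carried most of the immune sum in SW480, at 95.4 ± 9.12 CPM with lactate and 39.6 ± 9.86 CPM without (SD, n = 3 each). The 4 endothelial markers summed to at most 4.46 CPM in any library. Whether the changes in these markers had a part in the results below was not tested. DLD1 controls 2 and 3 stood apart from all other libraries. Over 11762 genes, the standard deviation of their log2 levels from the other libraries of the group was 0.537 and 0.443, against at most 0.262 elsewhere. Their deviations ran with the GC content of the transcript in opposite directions, with Spearman's rho of -0.78 for control 2 and 0.81 for control 3 across genes.

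Lactate changed 5 of the 10 genes in SW480 and 3 of the 10 in DLD1. A change means an adjusted p under 0.05 in edgeR's quasi-likelihood test, with Benjamini-Hochberg adjustment over all tested genes. In SW480, TSC22D3, AQP3, TSC22D2 and SLC6A6 rose and AKR1B1 fell, and 12.4% of all tested genes were called there, with 6.83% higher and 5.59% lower. In DLD1, SLC6A8, TSC22D3 and AQP3 rose and none of the 10 fell, and 0.381% of all tested genes were called there, with 0.336% higher and 0.0455% lower. The CPM of lactate and control libraries did not overlap for 6 of the 10 genes in SW480, against 40.8% of all tested genes, and for 6 of the 10 in DLD1, against 18.8%. AQP3 and TSC22D3 were the 2 of these genes that rose in both lines. In all, 22 genes did so, which is 1.83% of the genes that rose in SW480 and 37.3% of those that rose in DLD1. The median log2 fold change of the 10 genes was 0.23 in SW480, against -0.01 over all tested genes, and 0.23 in DLD1, against 0.02 over all tested genes.

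**Figure D1:**
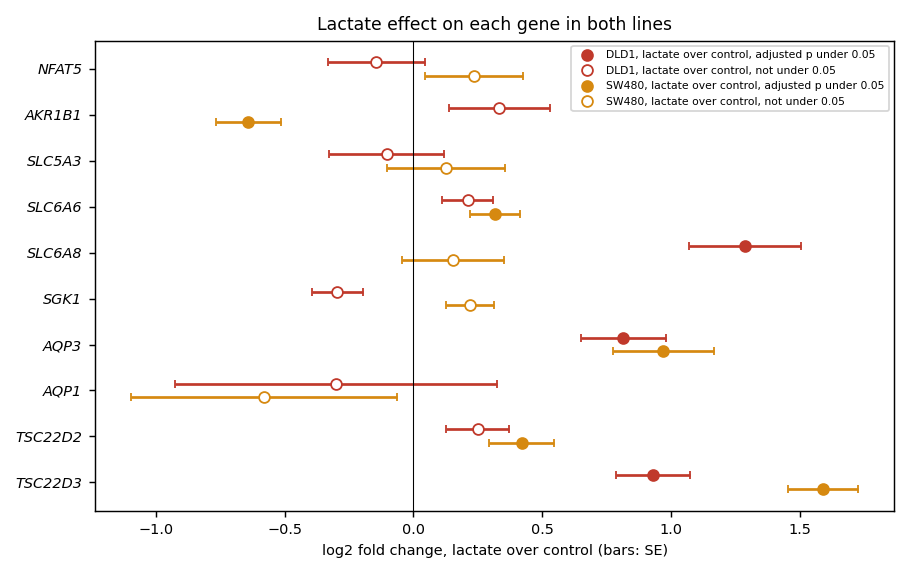
The log2 fold change, lactate over control, is plotted on the horizontal axis for each of the 10 genes, with DLD1 above SW480 in each row and bars for the SE (3 libraries a group). Filled points have an adjusted p under 0.05. AQP3 and TSC22D3 are filled in both lines, and AKR1B1 and SLC6A8 lie apart between the lines.

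The regulator NFAT5 did not pass the test over all 12 libraries in either line. With lactate, NFAT5 stood at 130, 144 and 169 CPM in SW480, against 130, 122 and 130 CPM in SW480 controls. The groups overlapped, and the log2 fold change was 0.23 ± 0.19 (SE), with an adjusted p of 0.466. With SW480 fitted alone, NFAT5 was called, at 0.24 and an adjusted p of 0.0283. With the trend along GC content and length removed from each library, the SW480 value was 0.16 (adjusted p = 0.165). In DLD1 the lactate libraries had 269, 216 and 209 CPM of NFAT5, against 211, 353 and 188 CPM in the controls. Control 2 was the highest of the 6 and control 3 the lowest, and the log2 fold change was -0.14 ± 0.19 (adjusted p = 0.696). NFAT5 transcripts are poor in GC, at 40.4% (percentile 17.4 of tested genes), and with the trend along GC content and length removed from each library the value was 0.022. RNA levels do not show the location or activity of the NFAT5 protein.

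AKR1B1 fell in SW480 with lactate. It had 486, 409 and 348 CPM in lactate libraries, against 678, 663 and 632 CPM in controls. Every lactate library lay below every control, with a log2 fold change of -0.64 ± 0.13 (SE) and an adjusted p of 0.00507. In DLD1 the gene was near the bottom of the range, at 2.72, 3.71 and 3.18 CPM with lactate and 2.13, 2.68 and 2.76 CPM without, from 40 to 72 reads per library. The DLD1 groups overlapped, and the log2 fold change of 0.33 ± 0.19 had an adjusted p of 0.360. Leaving out any 1 library kept the SW480 value between -0.75 and -0.49 and called.

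A list of 22 other genes of osmolyte synthesis and breakdown, which covers creatine, taurine, inositol, betaine and polyols, had 17 tested genes. In SW480, 3 of the 17 fell and 0 rose, where 5.59% of all tested genes fell and 6.83% rose. The 3 were AKR1B10, SORD and KHK. AKR1B10 is a close paralog of AKR1B1, SORD turns sorbitol into fructose, and KHK phosphorylates fructose. AKR1B10 averaged 17.8 ± 0.559 CPM with lactate and 43.4 ± 6.99 CPM without (SD, n = 3 each), a log2 fold change of -1.26 (adjusted p = 1.32e-04). KHK averaged 2.77 ± 0.307 CPM with lactate and 5.85 ± 0.738 CPM without (log2 fold change -1.05, adjusted p = 0.00378). SORD averaged 32.4 ± 1.45 CPM with lactate and 44.4 ± 4.76 CPM without (log2 fold change -0.43, adjusted p = 0.0179). AKR1B10 and KHK stayed called when any 1 library was left out. SORD lost its call without SW480 control 1, control 3, lactate 2 or lactate 3, within log2 fold changes of -0.51 to -0.36. AKR1B15, the other close paralog, averaged 1.75 ± 0.235 CPM with lactate and 1.13 ± 0.318 CPM without, a log2 fold change of 0.66 (adjusted p = 0.290). The median log2 fold change of the 17 genes was -0.15, against -0.01 over all tested genes. In DLD1, edgeR called 0 of the 17, beside 0.381% of all tested genes, and DESeq2 called 1, beside 684 of all 17572. In edgeR, 5 of the 17 had an unadjusted p under 0.05 there, and the gene at rank 3234 of all tested genes still had 0.0496. Reads of AKR1B1, AKR1B10 and AKR1B15 can be hard to assign where the genes are alike, and how shared reads were counted is not given in the sources used here.

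The transporters differed among themselves. The myo-inositol carrier SLC5A3 had 42.0, 40.4 and 54.2 CPM in SW480 lactate libraries, against 39.8, 41.5 and 45.4 CPM in SW480 controls. DLD1 libraries had 102, 93.6 and 76.8 CPM with lactate, against 82.6, 142 and 63.2 CPM in the controls. The groups overlapped in both lines, with log2 fold changes of 0.13 ± 0.23 in SW480 (adjusted p = 0.775) and -0.10 ± 0.22 in DLD1 (adjusted p = 0.829). Its transcript has the lowest GC content of the 10, 38.3%, and DLD1 controls 2 and 3 lay 0.66 above and 0.54 below the log2 mean of the controls. The DLD1 value became 0.13 with the GC and length trend removed and 0.30 without control 2. SLC5A3 shares 273 bases of exon, 2.36% of its exon length, with MRPS6 on the same strand.

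SLC6A6, the taurine carrier, was higher with lactate in SW480 by a small margin. It had 339, 328 and 302 CPM in lactate libraries, against 262, 254 and 277 CPM in controls. The groups did not overlap, and the log2 fold change of 0.32 ± 0.10 (SE) had an adjusted p of 0.0487. SLC6A6 in DLD1 stood at 274, 227 and 236 CPM with lactate, against 204, 201 and 221 CPM in the controls. These groups did not overlap either, but the log2 fold change of 0.21 ± 0.10 had an adjusted p of 0.269. The SW480 call was lost without any one of 8 libraries, at an adjusted p of 0.0559 to 0.175, with log2 fold changes of 0.29 to 0.35. Those libraries were SW480 controls 1, 2 and 3, SW480 lactate 1 and 2, DLD1 control 1, and DLD1 lactate 2 and 3. The call was also lost with no filter on low counts, at an adjusted p of 0.0910.

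The creatine carrier SLC6A8 had the largest fold change of the 10 in DLD1. Its levels were 36.5, 31.9 and 27.6 CPM in lactate libraries, against 11.5, 8.17 and 18.9 CPM in controls. Every lactate library lay above every control, with a log2 fold change of 1.29 ± 0.22 (SE) and an adjusted p of 0.0234. In SW480 it had 268, 261 and 210 CPM with lactate, against 208, 234 and 235 CPM in controls. Those groups overlapped, with a log2 fold change of 0.15 ± 0.20 (adjusted p = 0.667). The transcript has the highest GC content of the 10, 62.2% (percentile 91.6), and DLD1 controls 2 and 3 lay 0.55 below and 0.62 above the log2 mean of the controls. With the GC and length trend removed, the log2 fold change was 1.01 (adjusted p = 0.00103), and it was 1.06 without control 2 and 1.66 without control 3. The call was lost without DLD1 control 1 (adjusted p = 0.139), lactate 1 (0.158), lactate 2 (0.0772) or lactate 3 (0.0570), and with DLD1 fitted alone (0.264), at log2 fold changes of 1.19 to 1.38. Its pseudogene SLC6A10P held 0 to 12 reads per library, against 122 to 5055 of SLC6A8.

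The promoter window of SLC6A8, the 250 bases before its start from RefSeq on GRCh38.p14 (chrX:153687676-153687925, plus strand), is shown because this gene carried the largest DLD1 change. Capitals mark matches to GGGCGG on either strand.
SLC6A8: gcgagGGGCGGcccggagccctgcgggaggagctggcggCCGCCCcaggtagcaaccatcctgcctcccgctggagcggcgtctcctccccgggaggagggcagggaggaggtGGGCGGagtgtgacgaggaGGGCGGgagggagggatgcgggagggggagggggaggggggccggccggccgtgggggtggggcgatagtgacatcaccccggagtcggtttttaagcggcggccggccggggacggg
The window held 4 such matches. GGGCGG occurs on either strand in 42.6% of the 35114 RefSeq promoter windows of this length.

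SGK1 did not pass the test in either line, and its fold changes had opposite signs. It had 291, 277 and 283 CPM in SW480 lactate libraries, against 257, 243 and 243 CPM in SW480 controls. The SW480 groups did not overlap, with a log2 fold change of 0.22 ± 0.09 (SE) and an adjusted p of 0.139. DLD1 levels were 24.4, 24.8 and 21.9 CPM with lactate, against 31.1, 28.8 and 25.9 CPM in the controls. Every DLD1 lactate library lay below every DLD1 control, with a log2 fold change of -0.30 ± 0.10 (adjusted p = 0.161). DESeq2 called both, at an adjusted p of 0.0352 in SW480 and 0.0398 in DLD1. SGK1 in DLD1 also passed in edgeR without DLD1 control 3 (log2 fold change -0.37, adjusted p = 0.0158). In SW480 it passed without DLD1 control 2 (adjusted p = 0.0424) and with SW480 fitted alone (0.0158).

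**Figure D2:**
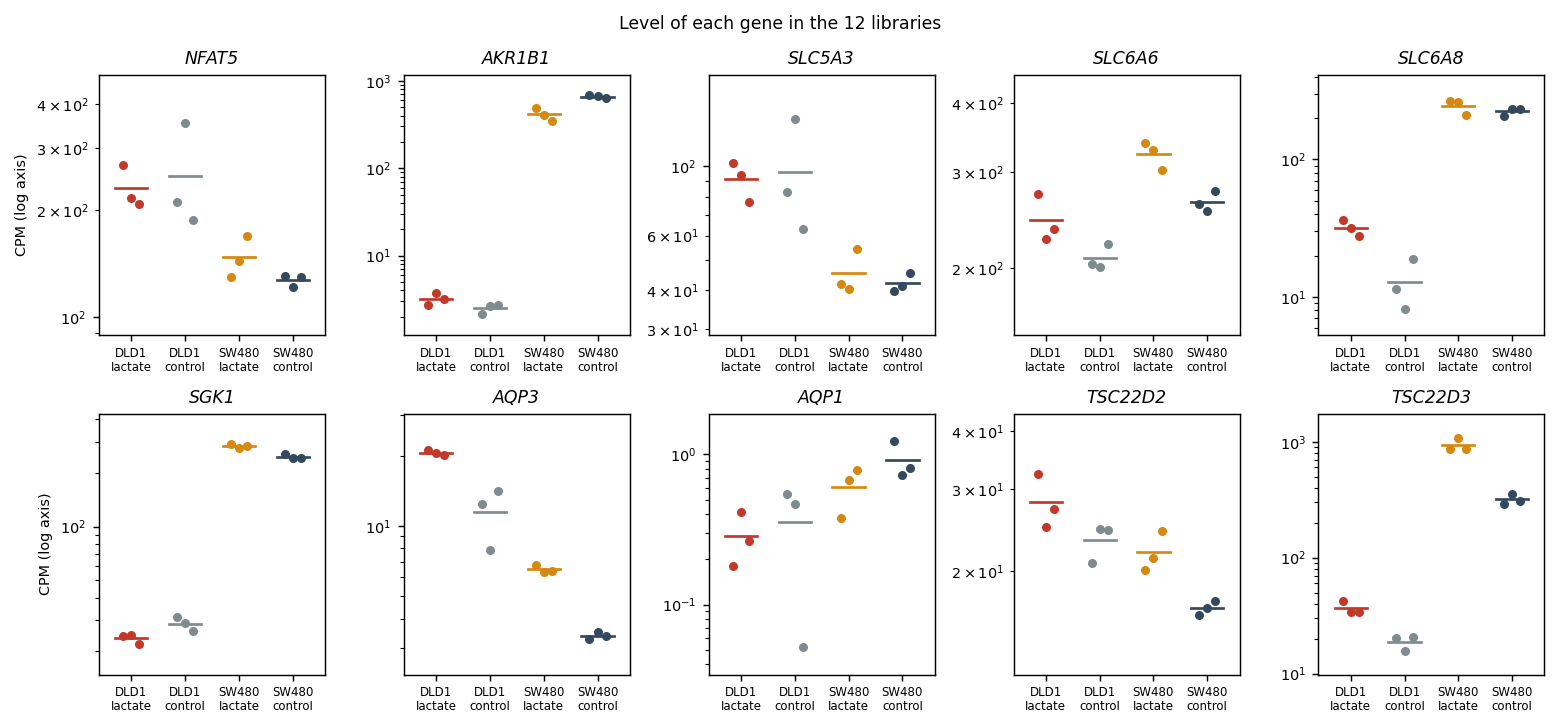
Levels of the 10 genes in CPM on a log axis, 1 point per library and a line at the group mean, with lactate left of control within each cell line. TSC22D3, AQP3, SLC6A6, TSC22D2 and SGK1 separate by treatment in both lines, SGK1 in opposite directions. The points of AKR1B1, SLC6A8, SGK1 and TSC22D3 lie far lower in DLD1 than in SW480.

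The water and glycerol channel AQP3 rose in both lines. In SW480 it had 6.80, 6.30 and 6.41 CPM with lactate, against 3.28, 3.50 and 3.36 CPM in controls. The 3 lactate libraries lay close together and well above the controls, with a log2 fold change of 0.97 ± 0.20 (SE) and an adjusted p of 0.00571. These levels rest on 90 to 122 reads with lactate and 43 to 58 without. In DLD1 it had 21.2, 20.5 and 20.2 CPM with lactate, against 12.4, 7.90 and 14.2 CPM in controls. The groups did not overlap, control 2 being the lowest, and the log2 fold change of 0.81 ± 0.16 had an adjusted p of 0.0493. In SW480 every one of the 21 alternatives kept the call, with values of 0.95 to 1.02 when 1 library was left out. In DLD1, leaving out any library other than DLD1 control 2 (adjusted p = 0.0201) or control 3 (0.00445) moved the adjusted p past the threshold, to 0.0736 to 0.265, and DLD1 fitted alone gave 0.371. The DLD1 log2 fold change was 0.62 without control 2, 0.98 without control 3, and 0.62 (adjusted p = 0.00488) with the GC and length trend removed. With the trend removed and control 2 left out together, it was 0.54 (adjusted p = 0.00968).

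AQP1, the archetypal water channel, was barely detected, with 1 to 19 reads per library. It had 0.374, 0.672 and 0.783 CPM in SW480 lactate libraries, against 1.22, 0.732 and 0.810 CPM in SW480 controls. DLD1 libraries held 0.182, 0.413 and 0.265 CPM with lactate, against 0.546, 0.469 and 0.0521 CPM without. The groups overlapped in both lines, and the log2 fold changes of -0.58 ± 0.51 in SW480 (adjusted p = 0.508) and -0.30 ± 0.62 in DLD1 (adjusted p = 0.823) leave wide margins at this depth. A same-strand gene, AC004691.2, covers 26.5% of the AQP1 exon length. Of 12 other aquaporins, 2 passed the filter, AQP7 and AQP11. In SW480 edgeR called 0 of these 2, beside 12.4% of all tested genes, and DESeq2 called 0, beside 2853 of all 17572. In edgeR, 0 of the 2 had an unadjusted p under 0.05 there, and the gene at rank 4009 of all tested genes still had 0.0316. In DLD1 edgeR called 0 of the 2, beside 0.381% of all tested genes, and DESeq2 called 0, beside 684 of all 17572. In edgeR, 1 of the 2 had an unadjusted p under 0.05 there, and the gene at rank 3234 of all tested genes still had 0.0496.

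TSC22D2 was higher with lactate in SW480, at 20.1, 21.3 and 24.4 CPM, against 16.1, 16.7 and 17.2 CPM in controls. The groups did not overlap, with a log2 fold change of 0.42 ± 0.13 (SE) and an adjusted p of 0.0438. DLD1 levels of TSC22D2 were 32.4, 24.9 and 27.1 CPM with lactate, against 20.8, 24.6 and 24.5 CPM in controls. The lowest lactate library lay just above the highest control, and the log2 fold change of 0.25 ± 0.12 had an adjusted p of 0.290. The SW480 call was lost without any one of 7 libraries, at an adjusted p of 0.0505 to 0.174 and log2 fold changes of 0.38 to 0.45. Those were SW480 controls 1, 2 and 3, SW480 lactate 2 and 3, DLD1 control 1 and DLD1 lactate 3. It was also lost with no filter (adjusted p = 0.0809).

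TSC22D3 showed the strongest response of the 10 genes in SW480, and it rose in DLD1 too. It had 870, 1085 and 870 CPM in SW480 lactate libraries, against 293, 357 and 307 CPM in controls. The groups lay far apart, with a 3.01-fold difference, a log2 fold change of 1.59 ± 0.14 (SE) and an adjusted p of 2.40e-05, which ranked 6 among all tested genes by p. DLD1 levels were 42.1, 33.9 and 33.9 CPM with lactate, against 20.3, 15.7 and 20.5 CPM in controls. Every lactate library lay above every control, with a log2 fold change of 0.93 ± 0.14 and an adjusted p of 0.0169. In SW480 all 21 alternatives kept the call, with 1.48 to 1.68 when 1 library was left out. In DLD1 the call was lost without control 1 (adjusted p = 0.0714), lactate 1 (0.130) or lactate 3 (0.0554) and with DLD1 fitted alone (0.187), at log2 fold changes of 0.83 to 0.99. With the GC and length trend removed the DLD1 value was 0.83 (adjusted p = 0.00190).

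The promoter windows of AQP3 and of 2 of the 4 TSC22D3 starts are shown because these genes rose in both lines. Each is the 250 bases before a start, from RefSeq on GRCh38.p14, written on the gene's own minus strand. They lie at chr9:33447594-33447843 for AQP3, and at chrX:107775989-107776238 and chrX:107717063-107717312 for an upstream and a downstream TSC22D3 start. Capitals mark matches to GGGCGG or TATAAA on either strand.
AQP3: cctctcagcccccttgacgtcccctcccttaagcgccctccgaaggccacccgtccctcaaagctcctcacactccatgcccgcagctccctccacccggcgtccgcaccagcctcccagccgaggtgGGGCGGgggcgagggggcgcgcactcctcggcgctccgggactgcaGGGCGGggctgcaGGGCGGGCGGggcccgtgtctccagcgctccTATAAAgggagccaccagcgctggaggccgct
TSC22D3 upstream: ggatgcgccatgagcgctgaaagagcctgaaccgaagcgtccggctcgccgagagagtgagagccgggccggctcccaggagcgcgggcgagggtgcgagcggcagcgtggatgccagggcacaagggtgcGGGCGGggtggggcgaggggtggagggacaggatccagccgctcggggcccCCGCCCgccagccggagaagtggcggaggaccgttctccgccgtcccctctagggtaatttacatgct
TSC22D3 downstream: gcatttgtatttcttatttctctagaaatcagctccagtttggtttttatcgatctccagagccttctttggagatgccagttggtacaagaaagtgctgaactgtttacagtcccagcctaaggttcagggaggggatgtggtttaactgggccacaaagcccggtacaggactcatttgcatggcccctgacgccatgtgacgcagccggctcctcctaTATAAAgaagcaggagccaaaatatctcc
AQP3 held 4 GGGCGG matches, with 2 of them overlapping, and 1 TATAAA match close to the start. The upstream TSC22D3 start had 2 GGGCGG and 0 TATAAA matches, and the downstream one had 0 and 1. TATAAA occurs on either strand in 10.7% of all promoter windows. RefSeq windows were matched for 7 of the 10 genes, 13 windows in all, and NFAT5, SLC6A6 and TSC22D2 were not matched. Of the 13 windows, 0 held the NFAT5 element TonE or its core TGGAAA, which occur in 4.16% and 18.0% of all windows. At such shares, 13 windows from 7 genes are too few for these absences to be informative. An exact palindromic glucocorticoid element was in 0 of the 13 and is in 0.0028% of all windows, too rare for its absence to be informative. Elements farther than 250 bases before a start were not searched, so these counts do not show that the genes lack such sites. Some windows of AKR1B1 and of TSC22D3 overlap each other. ACGTG, the core of hypoxia response elements, was in 1 of the 13, an SGK1 window, and is in 18.5% of all windows. Counts per gene do not tell which start was used.

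A list of 14 genes induced by glucocorticoids or encoding their receptors and handling, all of them tested, included 7 that rose and 0 that fell in SW480, beside 6.83% and 5.59% of all tested genes. Their median log2 fold change was 0.62, against -0.01 over all tested genes. ERRFI1, an inhibitor of EGF receptor signalling, averaged 3044 ± 110 CPM with lactate and 1604 ± 250 CPM without (log2 fold change 0.95, adjusted p = 5.81e-04). The transcription factors KLF9 (0.86, adjusted p = 8.03e-04) and TFCP2L1 (1.09, adjusted p = 0.00118) and the lipase inhibitor ANGPTL4 (1.18, adjusted p = 0.00461) also rose in log2 fold change. These 4 kept their calls without any 1 library. The other calls, of PER1, CRISPLD2 and DUSP1, were lost without any one of 3, 3 and 5 libraries. FKBP5 averaged 676 ± 37.5 CPM with lactate and 687 ± 36.4 CPM without, a log2 fold change of 0.00 (adjusted p = 1). MT2A, ZBTB16 and GLUL were not called either. MT2A averaged 1733 ± 85.8 CPM with lactate and 1242 ± 118 CPM without, and ZBTB16 45.5 ± 2.66 and 35.8 ± 4.21 CPM. The CPM of the groups did not overlap for MT2A and ZBTB16. GLUL averaged 50.4 ± 3.46 CPM with lactate and 52.4 ± 1.72 CPM without, with overlap. DESeq2 called 4 of the 14 in DLD1, beside 684 of all 17572 tested genes. In edgeR, 1 of the 14 rose in DLD1, beside 0.336% of all tested genes. It was ANGPTL4, at 42.4 ± 7.88 CPM with lactate and 15.1 ± 6.28 CPM without (log2 fold change 1.45, adjusted p = 0.0254). That call was lost without DLD1 control 1, lactate 1, lactate 2 or lactate 3, within 1.18 to 1.75 over all single omissions. It was also lost with DLD1 fitted alone (adjusted p = 0.256) and without DLD1 controls 2 and 3 (0.0593). The median of the 14 in DLD1 was 0.17, against 0.02 over all tested genes. NR3C1, which encodes the glucocorticoid receptor, had 0 to 7 reads in any DLD1 library, an average of 0.0698 CPM with lactate and 0.206 CPM without. In SW480 it averaged 216 ± 26.2 CPM with lactate and 182 ± 3.68 CPM without.

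**Figure D3:**
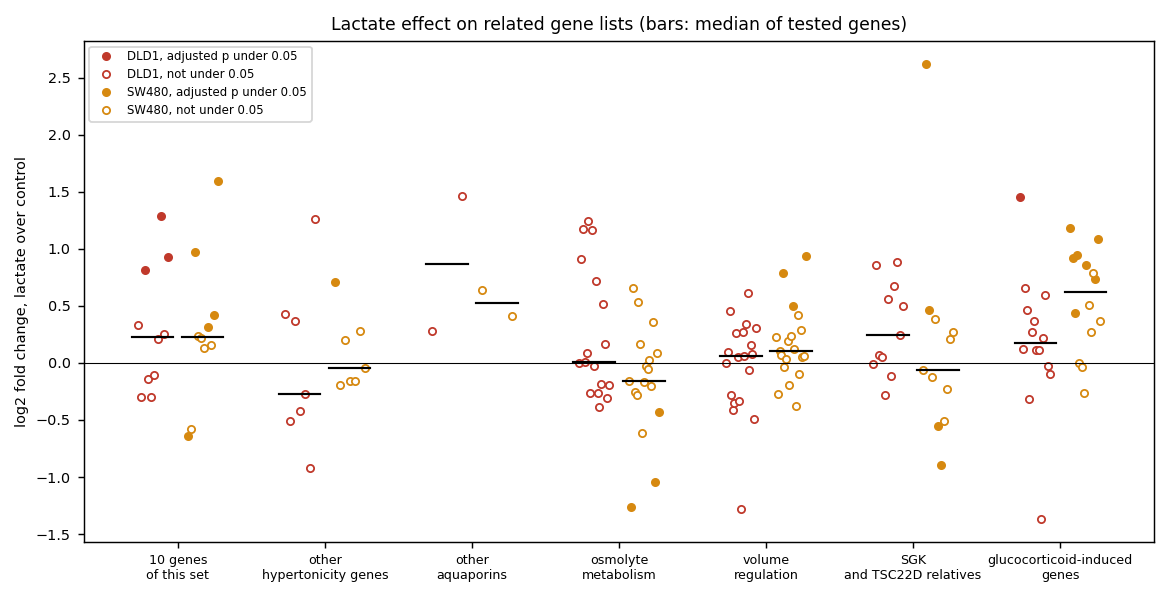
Log2 fold change, lactate over control, for the tested genes of each list, 1 point per gene, with DLD1 and SW480 in separate colours and a bar at the median. Filled points have an adjusted p under 0.05. The list labelled glucocorticoid-induced also holds genes of glucocorticoid receptors and handling. It has the highest median of the plotted lists in SW480, 0.62, and a median of 0.17 in DLD1. The highest median in DLD1 is that of the other aquaporins, 0.87 from 2 tested genes, which had 0.53 in SW480.

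Of 10 further genes of hypertonic adaptation, 7 were tested, among them the betaine carrier SLC6A12 and the amino acid carrier SLC38A2. In SW480, 1 of the 7 rose, beside 6.83% of all tested genes. It was GDPD5, which breaks down the osmolyte glycerophosphocholine. It averaged 4.999 ± 0.594 CPM with lactate and 3.14 ± 0.228 CPM without (log2 fold change 0.71, adjusted p = 0.0420), and 9 of the 12 single omissions ended that call. Each of the 6 SW480 libraries was among those 9, at log2 fold changes of 0.60 to 0.78 over all 12 omissions. The median of the 7 was -0.05 in SW480 and -0.28 in DLD1, against -0.01 and 0.02 over all tested genes. In DLD1 edgeR called 0 of the 7, beside 0.381% of all tested genes, and DESeq2 called 0, beside 684 of all 17572. In edgeR, 4 of the 7 had an unadjusted p under 0.05 there, and the gene at rank 3234 of all tested genes still had 0.0496.

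Of 21 genes of cell-volume regulation, 19 were tested, and in SW480 3 rose and 0 fell, beside 6.83% and 5.59% of all tested genes. LRRC8C, a subunit of the volume-regulated anion channel, averaged 24.0 ± 2.14 CPM with lactate and 14.2 ± 0.787 CPM without (log2 fold change 0.79, adjusted p = 0.0125). The kinase WNK4 (0.94, adjusted p = 0.0257) and the potassium chloride cotransporter SLC12A4 (0.50, adjusted p = 0.0412) were the other two, given as log2 fold changes. LRRC8C lost its call only without SW480 control 1 (adjusted p = 0.0723), WNK4 without any one of 4 libraries and SLC12A4 without any one of 10. In DLD1 edgeR called 0 of the 19, beside 0.381% of all tested genes, and DESeq2 called 2, beside 684 of all 17572. In edgeR, 6 of the 19 had an unadjusted p under 0.05 there, and the gene at rank 3234 of all tested genes still had 0.0496.

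Among 11 tested relatives and partners of SGK1 and TSC22D3, 2 rose and 2 fell in SW480, beside 6.83% and 5.59% of all tested genes. NDRG1, an SGK1 substrate also known as a hypoxia gene, averaged 1094 ± 130 CPM with lactate and 181 ± 63.0 CPM without (log2 fold change 2.62, adjusted p = 2.84e-05). NEDD4L, a ubiquitin ligase that SGK1 phosphorylates, rose by a log2 fold change of 0.47 (adjusted p = 0.00628). Subunits of the epithelial sodium channel fell, SCNN1A by 0.55 on the log2 scale (adjusted p = 0.0106) and SCNN1B by 0.90 (adjusted p = 0.0438). NDRG1 and NEDD4L kept their calls without any 1 library, while SCNN1A lost it without any one of 3 and SCNN1B without any one of 7. In DLD1 edgeR called 0 of the 11, beside 0.381% of all tested genes, and DESeq2 called 3, beside 684 of all 17572. In edgeR, 5 of the 11 had an unadjusted p under 0.05 there, and the gene at rank 3234 of all tested genes still had 0.0496.

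The lactate effects were then compared directly, as DLD1 minus SW480. Of the 10 genes, edgeR called 0, against 0.728% of all tested genes, and 4 had an unadjusted p under 0.05, against 16.8% of all tested genes. DESeq2 called 4 of the 10, against 719 of all 17572 tested genes. AKR1B1 differed by 0.97 ± 0.23 on the log2 scale (SE, adjusted p = 0.0668) and SLC6A8 by 1.13 ± 0.29 (adjusted p = 0.0836), both toward a higher value in DLD1. SGK1 differed by -0.52 ± 0.14 (adjusted p = 0.0884) and TSC22D3 by -0.66 ± 0.19 (adjusted p = 0.125). For AQP3 the difference was -0.16 ± 0.25 (adjusted p = 0.784). Of the genes in the other lists named above, 6 were called for the difference. AKR1B10 (2.18, adjusted p = 0.0168), KHK (1.21, 0.0432) and SCNN1A (1.11, 0.0143) were higher in DLD1 minus SW480. NDRG1 (-1.77, 0.0187), LRRC8C (-1.20, 0.0461) and TFCP2L1 (-1.12, 0.0435) were lower. Each of the 6 calls was lost on some single omissions, from 4 libraries for SCNN1A and 5 for AKR1B10 to 10 for KHK.

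The untreated lines differed widely in these genes. All 10 were called between DLD1 controls and SW480 controls, 4 higher and 6 lower in DLD1, where 70.8% of all tested genes were called, 33.6% higher and 37.3% lower. AKR1B1 averaged 2.52 CPM in DLD1 controls and 658 CPM in SW480 controls, a log2 fold change of -8.09 ± 0.18 (SE). SLC6A8 (-4.19), TSC22D3 (-4.14) and SGK1 (-3.18) were also far lower in DLD1 in log2 fold change, and SLC6A6 (-0.40) slightly so. AQP3 (1.71), SLC5A3 (1.12), NFAT5 (0.92) and TSC22D2 (0.42) were higher in DLD1. The AQP1 call (-1.44, adjusted p = 0.0291) was lost without SW480 control 1 (adjusted p = 0.119) or DLD1 control 3 (0.105). The contrast of the lines includes the difference in epithelial markers described above, from which it cannot be told apart. In bulk RNA, fewer cells of a type and less RNA per cell cannot be told apart.

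Levels per kilobase of exon allow the genes to be ordered within a group. With lactate in SW480, TSC22D3 came first at 198 CPM per kilobase and AKR1B1 second at 113, while in SW480 controls AKR1B1 led at 180 and TSC22D3 followed at 66.8. SLC6A8, SLC6A6, SGK1, NFAT5 and SLC5A3 came next in both SW480 groups in that order, at 44.8 to 3.93 with lactate and 41.1 to 3.65 without. SLC6A8 and SLC6A6 overlapped with lactate. Below them, AQP3 (2.20) stood above TSC22D2 (1.88) with lactate, and TSC22D2 (1.43) above AQP3 (1.14) without. The order was different in DLD1. There SLC6A6 led at 29.7 CPM per kilobase with lactate and 25.3 without, then NFAT5 at 14.1 and 15.3, and SLC5A3 at 7.86 and 8.29. With lactate, SLC5A3, TSC22D3 (7.69) and AQP3 (6.99) overlapped in sequence. In DLD1 controls, NFAT5 overlapped SLC5A3, and neighbours overlapped from TSC22D3 (3.96) through AQP3 (3.90), SGK1 (2.86) and SLC6A8 (2.33) to TSC22D2 (1.99). AKR1B1 (0.876 and 0.690) and AQP1 (0.0834 and 0.104) came last in DLD1 lactate and control libraries.

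**Figure D4:**
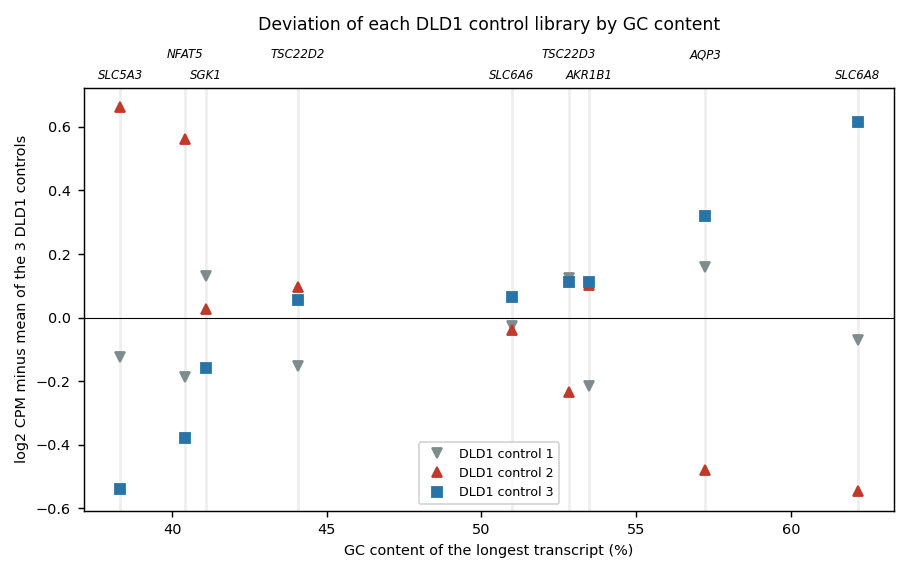
For each DLD1 control library, the log2 level minus the mean of the 3 controls is plotted against the GC content of the longest transcript (%), for 9 genes (AQP1, with few reads, is left out). Control 2 runs high for the GC-poor SLC5A3 and NFAT5 and low for the GC-rich AQP3 and SLC6A8, and control 3 runs the other way.

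For NFAT5, SLC5A3, AQP3 and SLC6A8, the spread of the DLD1 controls ran with GC content too. NFAT5 and SLC5A3, both GC-poor, were 0.56 and 0.66 above the log2 mean of the controls in control 2. AQP3 and SLC6A8, both GC-rich, were 0.48 and 0.55 below it in the same library. SGK1, also GC-poor at 41.1% (percentile 20.4), was only 0.03 above it there. TSC22D2 and AKR1B1, between these genes in GC content, were 0.09 and 0.10 above it. SLC6A6 and TSC22D3 were 0.04 and 0.24 below it. AQP1, GC-rich at 56.3% but with few reads, went the other way, at 0.54 above it. Across 11762 genes, the DLD1 lactate fold change itself ran with GC content, with Spearman's rho of 0.69, against 0.03 in SW480. SLC6A8, AQP3 and TSC22D3 kept their direction with either of the doubted controls left out, with both left out and with the trend removed, and removing the trend also takes away whatever part of a lactate effect follows GC content.

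**Figure D5:**
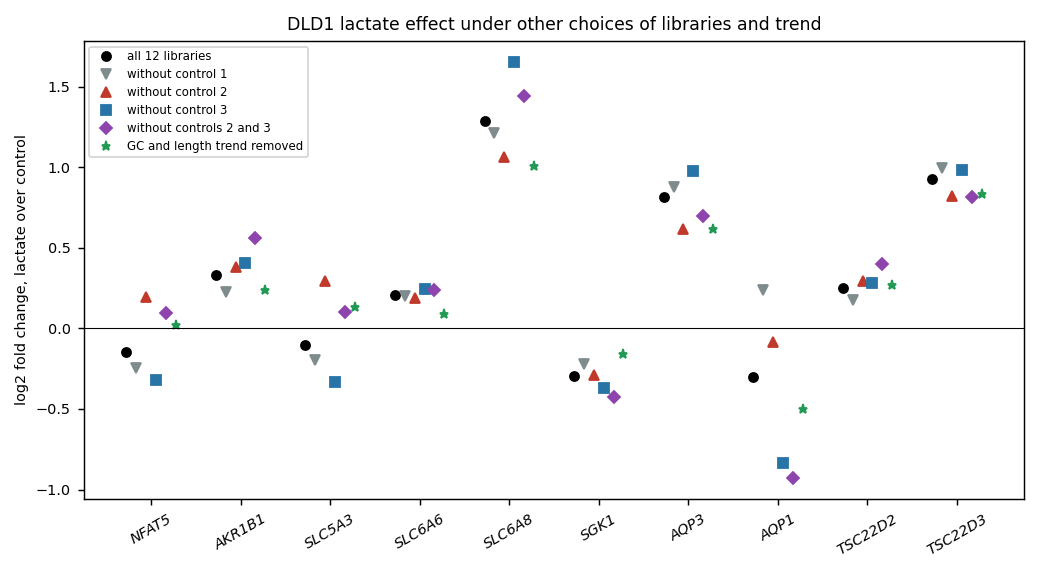
The DLD1 log2 fold change, lactate over control, of each of the 10 genes with all 12 libraries, without each control, without controls 2 and 3, and with the GC and length trend removed. SLC6A8, AQP3 and TSC22D3 stay above 0.6 in the plotted settings, while NFAT5, SLC5A3 and AQP1 change sign. Trend removal without control 2, which is not plotted, gave 0.54 for AQP3.

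Finally, the genes most like those that responded were sought over the 12 libraries, by the root mean square difference of log2 CPM after centring each line on its own mean. Nearest to AQP3 were PTK6 (0.093), SLC2A1 (0.110) and DDIT4 (0.123), against a median of 0.543 over all tested genes. PTK6 is a tyrosine kinase of epithelia, SLC2A1 the GLUT1 glucose carrier and DDIT4 an inhibitor of mTORC1. Nearest to TSC22D3 were the phosphatase gene DUSP5 (0.148), the integrin ITGA5 (0.155) and the secreted matrix protein CYR61 (0.167), against a median of 0.709. Nearest to SLC6A8 were C10orf91 (0.153), FOS (0.158) and ZNF467 (0.159), against 0.610. Nearest to AKR1B1 were LOC152048 (0.142), HGD (0.149) and LURAP1L (0.151), against 0.394. The small changes of SLC6A6 and TSC22D2 were most closely followed by B4GALT1 (0.045) and ATXN2 (0.052). These points share libraries and their GC trends, and the distances are descriptions without a test.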

How the data were processed

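The authors deposited 1 table of raw counts, whole numbers per gene and library that had not been normalized, as the values and the file headers show. The submitters' processing notes name HISAT2 and the build GRCh38. Which counting tool, annotation and strand setting were used is not given in the sources used here. Without a known strand setting, reads of overlapping genes on opposite strands (GRIP2 with SLC6A6, PNCK with SLC6A8, NCBP2L with TSC22D3) cannot be told apart. All 12 columns matched 1 library by title.

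The counts were tested in R 4.3.3 with edgeR 4.0.16, with filterByExpr by group, TMM scaling and a robust quasi-likelihood fit with 1 mean per group over all 12 libraries. Tests were two-sided, with Benjamini-Hochberg adjustment over 17572 genes and a threshold of 0.05. Each SE was obtained from the fold change and the F statistic of its test. CPM was computed on the total count. Depth was 12302311 to 22662063 counts. If the replicates were not separate cultures, p-values measure technical spread only.

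Alternatives were other scaling, no filter, at least 1 CPM, DESeq2 1.42.0, a replicate block, each line alone, and each library left out. Removal of the GC and length trend used splines with 5 degrees of freedom over the 85.6% of tested genes with known GC content. After the data had been seen, fits without DLD1 control 2 plus trend removal and without DLD1 controls 2 and 3 were added, as were the motifs TATAAA and GGGCGG. The fit was also run on counts simulated from its own fitted spread. That simulation had no GC trend, so it is no check on the outlying DLD1 controls. Positions and promoters come from RefSeq (GRCh38.p14), and exon length, GC content and exon overlap from GENCODE transcripts. Of the lists, called genes could be named for the lactate effects and their difference, up to 4 per list and comparison by smallest p. PER1, CRISPLD2, DUSP1, FKBP5, MT2A, ZBTB16, GLUL, NR3C1 and AKR1B15 were named beyond this after their values were seen. The 10 genes and the lists were chosen with earlier results of these data known.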

Additional observations from a re-analysis of the deposited data

Results flagged for a closer look

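In DLD1 against SW480, 4 of the genes had lactate effects that differed between the lines at an unadjusted p under 0.05 in edgeR's quasi-likelihood test, and none of these passed adjustment over all genes. AKR1B1 differed by 0.97 on the log2 scale, DLD1 minus SW480 (adjusted p = 0.0668). SLC6A8 differed by 1.13 (adjusted p = 0.0836), SGK1 by -0.52 (adjusted p = 0.0884) and TSC22D3 by -0.66 (adjusted p = 0.125). AKR1B1 was lower with lactate in all 3 SW480 libraries, and in DLD1 its groups overlapped. SGK1 was lower with lactate in all 3 DLD1 libraries and higher in all 3 SW480 libraries. AKR1B1 in DLD1 rests on 40 to 72 reads per library. DESeq2 called all 4. In edgeR, AKR1B1, SLC6A8 and SGK1 were called without DLD1 control 3, and AKR1B1, SGK1 and TSC22D3 without DLD1 control 2. With the GC and length trend removed, and with no filter, AKR1B1, SLC6A8 and TSC22D3 were called.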

How the results depend on the processing

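Of 815 values of the 10 genes in 4 comparisons under 21 alternatives, 720 kept their direction and side of the threshold, 43 lost a call, 34 gained one and 18 changed direction; the cause was not tested. Where no other value is named, counts are genes called by edgeR. Leaving out 1 library gave 689 to 4347 genes in SW480 (all 12 libraries: 2183), 3 to 3791 in DLD1 (67), 9 to 1508 for the difference of the effects (128) and 11736 to 13260 between controls (12448), and of the 10 genes 3 to 6, 0 to 4, 0 to 3 and 9 to 10. The lowest DLD1 count, 3, came without DLD1 control 1, and the highest, 3791, without DLD1 control 3. With each line fitted alone, SW480 gave 4783 genes and 7 of the 10, gaining NFAT5 (adjusted p = 0.0283) and SGK1 (0.0158), and DLD1 gave 1 gene and 0 of the 10. With the GC and length trend removed, SW480 gave 4808, DLD1 531 (300 higher, 231 lower, against 59 and 8) and the difference 1297, with 3 of the 10. Trend removal without DLD1 control 2 gave 5832, 447 and 1655, with 4 of the 10 for the difference. Without DLD1 controls 2 and 3 the counts were 4722, 589 and 627, with 3 of the 10, and the lone control is assumed to vary like the other groups. With no filter, 3 of the 10 were called in SW480, and DLD1 gave 855 genes and the difference 837, with 3 of the 10. DESeq2 gave 684 in DLD1 and 719 for the difference, with 4 of the 10. With the replicate number as a block, 3 of the 10 were called in SW480, where SLC6A6 (adjusted p = 0.0747) and TSC22D2 (0.0583) lost their calls, DLD1 gave 184 genes, the difference 274 with 1 of the 10, and the controls 12582. Same-numbered deviations correlated at 0.07, 0.07 and 0.14 in SW480 and -0.17, 0.19 and 0.27 in DLD1. Differently numbered ones correlated at -0.17 to 0.09 in SW480 and -0.28 to 0.09 in DLD1. Whether the number marks a pairing was not tested. The block changed no call of the 10 in DLD1.

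The values that changed direction all missed the threshold. In DLD1, NFAT5 was 0.022 with the GC and length trend removed, 0.12 also without DLD1 control 2, and 0.10 without controls 2 and 3. Leaving out 1 library gave NFAT5 values of -0.32 to 0.19, the highest without DLD1 control 2. SLC5A3 was 0.13, 0.27 and 0.10 under the same settings and -0.33 to 0.30 when 1 library was left out, above 0 without DLD1 control 2 (0.30) or lactate 3 (0.00207). AQP1 in DLD1 ran from -0.83 to 0.24, above 0 without DLD1 control 1. For the difference of the effects, SLC5A3 was 0.085 with the trend removed and 0.22 also without DLD1 control 2, and -0.46 to 0.17 when 1 library was left out, above 0 without DLD1 control 2. AQP1 was -0.35 without controls 2 and 3 and -0.26 to 0.81 when 1 library was left out, below 0 without SW480 lactate 1 (-0.015), DLD1 control 3 or DLD1 lactate 2 (-0.049). AQP3 ran from -0.36 to 0.00653, above 0 without DLD1 control 3. Between controls, without DLD1 controls 2 and 3, AQP1 (adjusted p = 0.281) and TSC22D2 (0.113) lost their calls. Counts of 1 to 19 limit AQP1 in every library.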
